A study of Mus musculus with 25 samples.

Results

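The 8 genes described here were grouped as endothelial, pericyte and junction genes: Robo4, Eng, Jam2, Ocln, Vcam1, Cd151, Rgs5 and Anpep. Their RNA was read in the hypothalamus of mice carrying a subcutaneous colon tumor, and which cells it came from was not tested. They were taken by symbol from the probe annotation, and all 8 were found among 8726 named genes. Male BALB/c mice aged 8 weeks had received either 1000000 CT-26.WT cells, a mouse colon carcinoma line of the same strain, in 300 µl of phosphate-buffered saline (PBS) under the skin, or the same volume of PBS alone, and were killed 18, 72 or 192 h later. Each array was an in-house printed oligonucleotide slide on which tumor hypothalamus RNA in one dye competed with PBS hypothalamus RNA in the other, so each value below is a log2 ratio of tumor over PBS. The labels describe 25 arrays of 13 biological replicates, of which 19 arrays of 11 replicates were used. The 18 h group had 5 replicates, the 72 h group 2 and the 192 h group 4. In the 18 h and 192 h groups, replicates 1 and 2 were polyA RNA hybridised in a single dye orientation, with tumor RNA in Cy5 for replicate 1 and in Cy3 for replicate 2. Replicates from 3 upward were total RNA hybridised in both orientations. Whether each replicate came from one mouse or from pooled mice is not stated, and the p-values below speak only of the scatter among these replicates, some of which may be technical. No sample came from isolated vessels, and in whole hypothalamus fewer vascular cells and less RNA per cell cannot be told apart.

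The wall of a brain capillary is built from endothelial cells sealed by tight junctions, with pericytes wrapped around them in a shared basement membrane. This arrangement forms the blood-brain barrier, and in parts of the hypothalamus it gives way to leaky vessels through which blood-borne signals reach the brain. Robo4 is a roundabout receptor of endothelial cells that stabilises vessels, and Eng encodes endoglin, an endothelial co-receptor for TGF-beta family ligands. Jam2, a junctional adhesion molecule of the immunoglobulin superfamily, and Ocln, which encodes occludin, are membrane proteins of tight junctions. Vcam1 is the adhesion molecule with which inflamed endothelium holds leukocytes. Cd151 is a tetraspanin that partners laminin-binding integrins. Rgs5, a regulator of G protein signalling, and Anpep, aminopeptidase N, are widely used pericyte markers in brain.

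The arrays limit what can be said of any of these genes. Of 10080 spots, between 3056 and 9839 per array had a signal above 0 in both channels in at least 1 of 3 scans. Signals are net, with the local background already subtracted. Over scans above 0, the median net signal over local background ranged from 0.756 to 2.21 across arrays. The brightness rank of a spot agreed modestly between arrays, with a median Spearman rho of 0.399 across spots for pairs of arrays of the same print layout and 0.356 for pairs of different layouts. The files do not state which dye each channel held. The direction of tumor over PBS is therefore likely rather than settled, although the authors' deposited values correlated positively with these ratios across spots on 19 of 19 arrays (r from 0.592 to 0.847). Among 8 hypothalamic peptide genes, the median brightness percentile over the arrays that measured them was 97.1 for Avp, 97.8 for Oxt, 97.6 for Pmch, 87.5 for Sst, 78.9 for Cartpt, 71 for Trh, 63.5 for Gal and 62.9 for Hcrt. Among classical vascular markers, Cdh5, the cadherin of endothelial adherens junctions, was measured on 10 of 19 arrays at a median percentile of 14.9, and Pdgfrb, the pericyte growth factor receptor, on 9 arrays at 46.2. Sox7, an endothelial transcription factor, was measured on 19 arrays at a median of 92.6.

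Brightness was expressed as the percentile of a spot among the measured spots of its array, and it depends on the probe, so genes are not ranked by it. Robo4 was measured on 18 of 19 arrays, at percentiles from 57.7 to 98.7 with a median of 93.3. Its net Cy5 signal was a median of 4.88 times the local background and its net Cy3 signal 2.08 times. Rgs5 was measured on 15 arrays (median percentile 76.3, range 13.1 to 94.4), and a second Rgs5 spot, not used for the ratio because it was dimmer, was measured on 12 arrays (median 69.45). Eng was measured on 16 arrays at a median of 73.45. That median joins different levels, since Eng lay at a median of 20.2 on the 4 polyA arrays that measured it and at 74.85 on 12 total RNA arrays. The percentile ranges of Eng in the RNA types overlapped only between 41.5 and 43.3. RNA type and print layout changed together here and cannot be told apart.

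The other genes were measured on 10 to 15 arrays. Cd151 was measured on 15 arrays with a median percentile of 59.5 and a range from 1.2 to 79.6. Anpep was measured on 12 arrays (median 59.85), Vcam1 on 14 (median 51.1, range 22 to 66.4) and Ocln on 14 (median 44.6). Jam2 was measured on only 10 arrays, at a median percentile of 28.6. At 18 h only single orientations measured it, so no replicate had a value at that time.

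**Figure D1:**
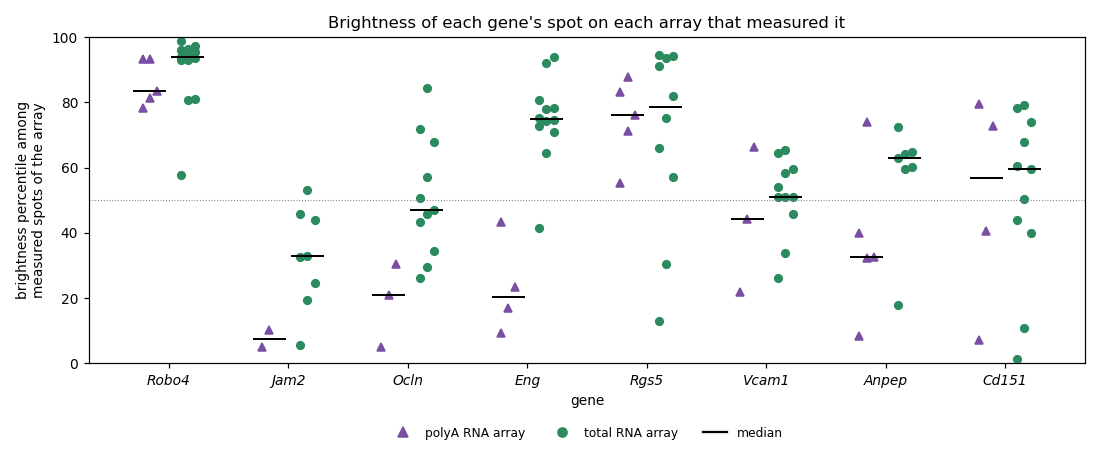
Brightness percentile of each gene's spot (vertical axis, 0 to 100) on every array that measured it, split into polyA RNA arrays (triangles) and total RNA arrays (circles), with bars at the medians. Robo4 lies near the top on most arrays, and Eng has the widest gap between polyA and total RNA medians, at 20.2 and 74.85.

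Tumor over PBS was tested per gene in one model over all replicates, with a term for each time and one for dye orientation (limma, Benjamini-Hochberg adjustment over all genes tested). A total RNA replicate averaged both orientations, so the dye term rested on the polyA replicates alone. Among these, replicate 1 had tumor RNA in Cy5 and replicate 2 in Cy3, so dye and replicate cannot be told apart. The term takes up gaps between these replicates, which the standard errors and p-values below then leave out. A gene needed at least 3 measured replicates at 18 h and 192 h, or 2 at 72 h. No member was called at an adjusted p of 0.05: 0 of 7 tested at 18 h, 0 of 2 at 72 h and 0 of 5 at 192 h. The background was the same, since 0% of 5066 genes at 18 h, 0% of 1934 at 72 h and 0% of 2802 at 192 h were called. At an unadjusted p under 0.05, 1 of 7 members passed at 18 h against 5.35% of all genes, 0 of 2 at 72 h against 1.71%, and 2 of 5 at 192 h against 4.25%. The members that passed the unadjusted threshold were Robo4 at 18 h and Jam2 and Cd151 at 192 h. Every measured replicate was above 0 for 1 of 7 members at 18 h (8.84% of all genes), 1 of 2 at 72 h (27.1%) and 0 of 5 at 192 h (6.57%). Every measured replicate was below 0 for 0 of 7 members at 18 h (7.52% of all genes), 0 of 2 at 72 h (26%) and 1 of 5 at 192 h (7.78%). The median estimate over the members was 0.03 at 18 h, 0.09 at 72 h and -0.15 at 192 h, beside medians over all genes of -0.0026, 0.01 and -0.03.

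**Figure D2:**
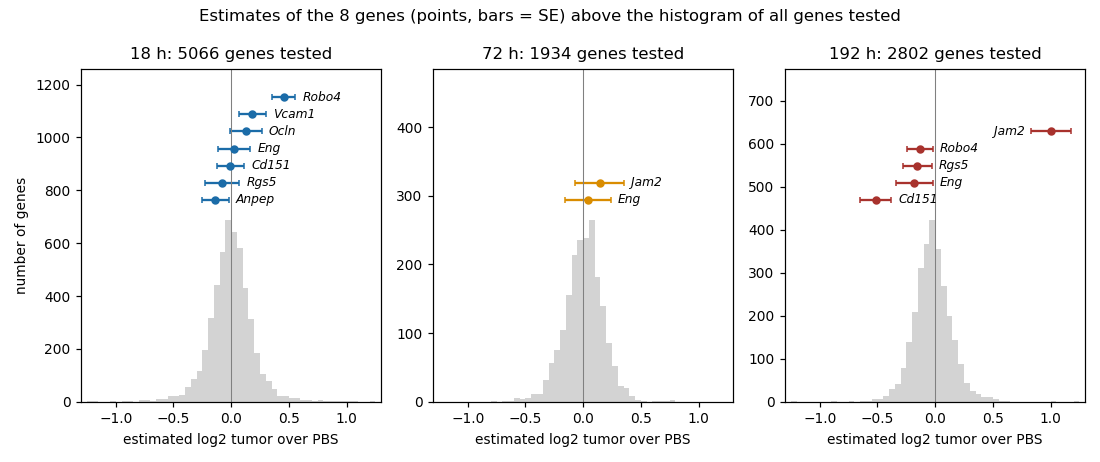
Estimated log2 tumor over PBS (horizontal axis) of the members tested at each time, as points with bars of 1 standard error, above a histogram of all genes tested at that time; estimates beyond the plotted range are gathered in the end bins. Robo4 at 18 h (0.46), Cd151 at 192 h (-0.52) and Jam2 at 192 h (1.00) lie in the tails of the histograms.

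Robo4, the endothelial guidance receptor, was the member with the smallest p at 18 h. Its 5 replicates at 18 h had log2 ratios of 0.13, 1.13, 0.19, 0.59 and 0.25 for replicates 1 to 5. All 5 were above 0, and the polyA replicate 2 lay farthest from the rest. Of 817 genes measured in all 5 replicates at this time, 1.84% had every replicate above 0. The estimate was 0.46 ± 0.10 (SE, n = 5), with an unadjusted p of 0.000633 that ranked 2 of 5066 genes and an adjusted p of 0.887 (limma). The SD over the 5 replicates was 0.41. At 18 h and 192 h alike, the polyA replicate with tumor RNA in Cy5 was lowest and the one in Cy3 highest. The dye term of Robo4 was -0.42 ± 0.11 (limma adjusted p = 0.0593). It takes up much of the gap between the polyA replicates, which the standard error and the rank then leave out.

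At array level, 7 of the 8 arrays at 18 h put Robo4 above 0. The exception was the orientation of replicate 4 with tumor RNA in Cy3, at -0.13, whose partner with tumor RNA in Cy5 read 1.3. The pairs of replicate 3 (0.04 and 0.34) and replicate 5 (0.29 and 0.21) lay closer together. With the total RNA replicates alone the estimate was 0.34 ± 0.12, and leaving out each replicate in turn gave 0.37 to 0.52. The size depended on the normalization, and was 0.18 with a loess curve per print block and 0.16 with median centring alone. The authors' deposited values, rescaled as natural logs whose base is not stated, gave 0.13.

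Robo4 did not keep that sign later. At 72 h the one replicate measured in both orientations read -0.10, from arrays at -0.36 and 0.17. At 192 h the replicates read -0.44, 0.24, -0.08 and -0.24, so 3 of 4 were below 0, and the range overlapped that of 18 h through the polyA replicate 2. The estimate at 192 h was -0.13 ± 0.11 (SE, n = 4, limma adjusted p = 0.999). The difference between 192 h and 18 h was -0.59 ± 0.15, with an unadjusted p of 0.00202 and an adjusted p of 0.803 (limma), where 5.82% of 2507 genes had an unadjusted p under 0.05 and 0% were called. The difference was -0.25 with loess per print block, -0.34 with median centring alone and -0.22 with the authors' deposited values.

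Eng, the endothelial co-receptor, stayed close to 0. Its replicates at 18 h read -0.38, 0.38, 0.14 and -0.05, on both sides of 0, for an estimate of 0.03 ± 0.14 (SE, n = 4). Both replicates at 72 h were slightly above 0, at 0.06 and 0.03. At 192 h 2 replicates read 0.0022 and 0.0024 and the polyA replicate 2 read -0.54. The estimate was -0.18 ± 0.16 (SE, n = 3), which turned to 0.15 without replicate 2. The polyA values of 0.0022 and -0.54 at 192 h and 0.38 at 18 h each rested on 1 scan of 1 array. Eng was the one member measured well enough at every time for an average over the times, -0.04 ± 0.10 (SE, n = 9, limma adjusted p = 0.996), where 0% of 1218 genes were called and 1.81% had an unadjusted p under 0.05. Eng was also the 1 member whose 72 h and 18 h values could be compared, and it did not reach an unadjusted p under 0.05, which 1.64% of 1645 genes did.

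The near-zero means of Eng joined arrays that disagreed. At 72 h replicate 3 read 0.40 with tumor RNA in Cy5 and -0.28 with tumor RNA in Cy3, and replicate 4 read 0.39 and -0.33. The dye orientations had opposite signs in 4 of its 5 pairs, although not always the same way round, since replicate 5 at 18 h read -0.37 in Cy5 and 0.28 in Cy3. Over all genes, 57% of pairs had opposite signs, and the median distance of an orientation from the mean of its pair (0.18) exceeded the median absolute mean (0.15). For Eng that distance had a median of 0.32, at the 88.9th percentile of 5815 genes with at least 3 pairs.

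**Figure D3:**
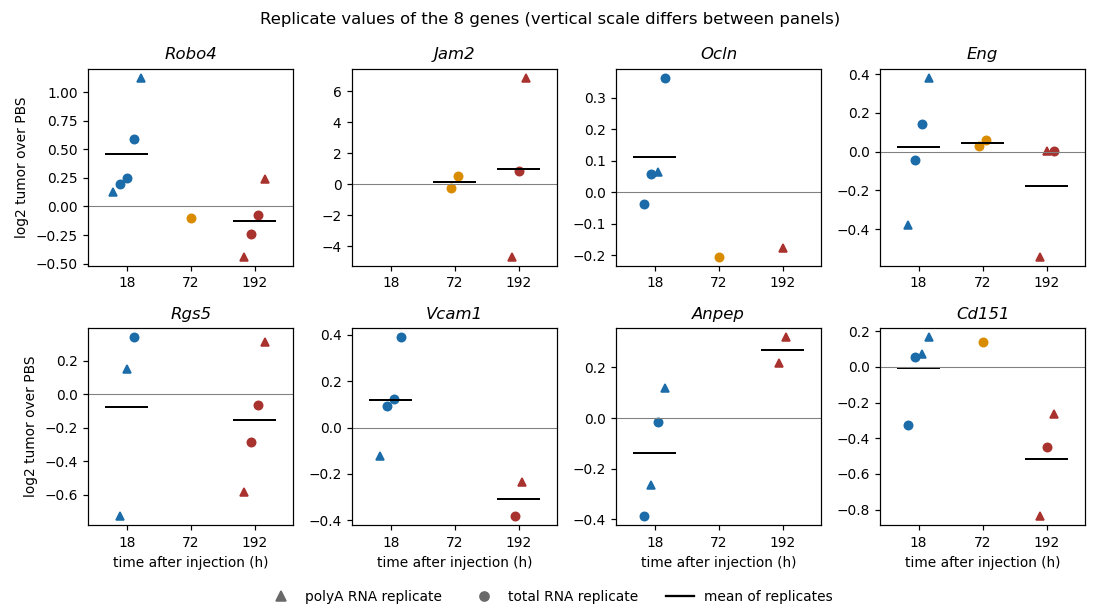
Log2 tumor over PBS of each replicate (vertical axis, scale differing between panels) by time after injection for the 8 genes, with triangles for polyA RNA, circles for total RNA and bars for means of 2 or more replicates. Robo4 has all 5 replicates above 0 at 18 h, Cd151 has all 3 below 0 at 192 h, and Jam2 at 192 h spans -4.68 to 6.87.

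Jam2, the junctional adhesion molecule, gave the largest ratios of the 8 genes and was the only one called for the dye term. Its 192 h replicates read -4.68 with tumor RNA in Cy5, 6.87 with tumor RNA in Cy3 and 0.82 as the mean of both orientations. The mean of these was 1.00 with an SD of 5.78 (n = 3). The pair behind the third value read -1.26 with tumor RNA in Cy5 and 2.90 in Cy3. In each of these cases the Cy3 channel, whichever RNA it held, gave the higher value.

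At 72 h replicate 3 showed the same pattern, at -2.86 with tumor RNA in Cy5 and 3.89 in Cy3. Replicate 4 did not, at -0.22 and -0.25. At 18 h single arrays read -0.28 in replicate 3, in 1 scan with tumor RNA in Cy3, and -0.14 in replicate 5 with tumor RNA in Cy5. The distance of an orientation from the mean of its pair had a median of 2.08 in 3 pairs, at the 99.7th percentile of genes. The dye term was -5.78 ± 0.21 (limma adjusted p = 5.53e-06), and Jam2 was the 1 member of 8 called for dye, beside 4.02% of 5200 genes. The fit held 5 replicates, but the term was set by the polyA replicates of 192 h alone, since total RNA replicates averaged both orientations. Replicate 1 had tumor RNA in Cy5 and replicate 2 in Cy3, so dye and replicate cannot be told apart in this call. The call also depended on the fit. When arrays were fitted singly with the replicate as a random block, the term was -2.25 and its adjusted p 0.158.

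On both arrays with the ratios farthest from 0, the net Cy5 signal of the Jam2 spot was a small fraction of its local background. On the array with the ratio of 6.87, all 3 scans were above 0 in both channels. The net Cy5 signal there was 0.0246 of its local background, beside 3.96 times in Cy3. On the array with the ratio of -4.68, net Cy5 was at 0.088 of its background and net Cy3 at 1.78 times.

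The fitted tumor effect of Jam2 must be read beside that spread. The estimate at 192 h was 1.00 ± 0.17 (SE, n = 3), with an unadjusted p of 0.000398 and an adjusted p of 0.372 (limma). The dye term takes up the gap between the polyA replicates, and without that term the same estimate had a standard error of 1.84. Leaving out replicate 2 of 18 h, which does not measure Jam2, took the standard error to 0.156 and the adjusted p to 0.01, whereas leaving out replicate 1 or replicate 2 of 192 h gave 0.82, with adjusted p-values of 1 and 0.999. At 72 h the replicate means were 0.52 and -0.23, and the estimate was 0.14 ± 0.21 (SE, n = 2, limma adjusted p = 0.992). The difference of 192 h from 72 h was 0.86 ± 0.27 (limma adjusted p = 0.998), where 2.83% of 1306 genes had an unadjusted p under 0.05 and 0% were called.

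**Figure D4:**
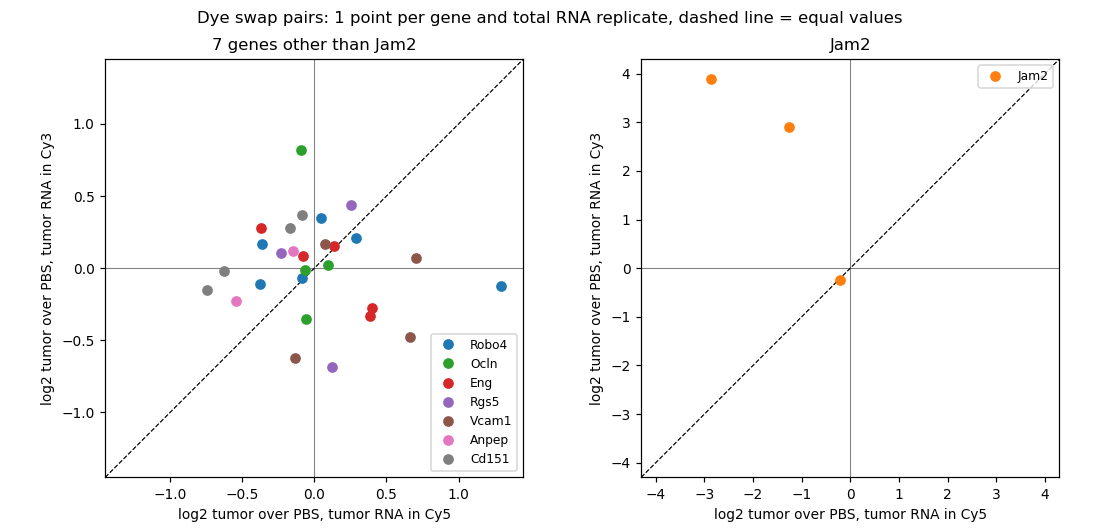
Log2 tumor over PBS with tumor RNA in Cy5 (horizontal axis) against the same replicate with tumor RNA in Cy3 (vertical axis), 1 point per gene and total RNA replicate, with Jam2 in its own panel at a wider scale. Points on the dashed line would be equal in both orientations; the Jam2 pairs at -2.86 and 3.89 and at -1.26 and 2.90 lie far from it, and those of Eng fall in quadrants of opposite sign in 4 of 5 cases.

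Ocln, the occludin gene, was measured mainly at 18 h. Replicates 1, 3, 4 and 5 read 0.06, 0.36, 0.06 and -0.04, and 3 of 4 were above 0. The highest value rested on a single orientation, since replicate 3 read 0.82 with tumor RNA in Cy3 and -0.09 in Cy5. The estimate was 0.13 ± 0.14 (SE, n = 4, limma adjusted p = 0.926), with replicate values that averaged 0.11. Single replicates read -0.21 at 72 h and -0.18 at 192 h, too few for a test.

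Vcam1, the leukocyte adhesion molecule, read -0.12, 0.12, 0.39 and 0.09 in replicates 1, 3, 4 and 5 at 18 h. The 3 total RNA replicates were above 0 and the polyA replicate below it. The estimate was 0.18 ± 0.12 (SE, n = 4, unadjusted p = 0.158, limma adjusted p = 0.887), and the plain mean was 0.12 ± 0.21 (SD). Orientations disagreed in replicate 5, at 0.66 with tumor RNA in Cy5 and -0.48 in Cy3.

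At 192 h both Vcam1 replicates measured in full were below 0, at -0.24 and -0.38, which is too few for a test at that time. Both lay below every 18 h replicate, as did the 192 h replicates of 7.96% of the 490 genes measured in 4 replicates at 18 h and 2 at 192 h. A further array of replicate 3 read -0.12, so that all 5 arrays that measured Vcam1 at 192 h lay between -0.62 and -0.12. The tumor channel of the spot was above 0 in 12 of 21 scans at 192 h and the PBS channel in 20, beside 57.2% and 62.1% of scans over all genes, and a gap this low or lower was found in 3.25% of genes. This gap was in one orientation. With tumor RNA in Cy5, 1 of 9 tumor scans and 9 of 9 PBS scans were above 0. In the other orientation the counts were 11 and 11 of 12. Over all genes and times, 52.4% of Cy5 scans and 79.7% of Cy3 scans were above 0, so fewer Cy5 scans is not particular to Vcam1.

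Cd151, the tetraspanin, was near 0 at 18 h and below 0 at 192 h. At 18 h replicates 1, 2, 4 and 5 read 0.17, 0.07, -0.32 and 0.06, for an estimate of -0.0064 ± 0.12 (SE, n = 4). The single replicate at 72 h read 0.14. At 192 h replicates 1, 2 and 4 read -0.26, -0.84 and -0.45. All 3 were below 0, as they were in 11% of the 1598 genes measured in exactly 3 replicates at that time, and the highest of them still overlapped the lowest value of 18 h.

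The Cd151 estimate at 192 h was -0.52 ± 0.14 (SE, n = 3), with an unadjusted p of 0.0038 and an adjusted p of 0.999 (limma). The difference from 18 h was -0.51 ± 0.18 (unadjusted p = 0.0187, limma adjusted p = 0.803). Few scans stood behind some of these ratios. At 192 h replicate 2 rested on 2 scans of 1 of its 2 arrays. Replicate 4 read -0.75 in the 1 scan that measured it with tumor RNA in Cy5 and -0.15 in the 1 scan that measured it with tumor RNA in Cy3. Over the times, Cd151 read lower with tumor RNA in Cy5 in each of its 4 pairs. The distance of an orientation from the mean of its pair had a median of 0.26. For 192 h the authors' deposited values, rescaled as natural logs, gave -0.22, and normexp background correction gave -0.86. With the authors' deposited values the 18 h estimate was 0.43.

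Scans in which one channel of the Cd151 spot was listed at 0 give no ratio, and they were unevenly divided. At 192 h the tumor channel was above 0 in 9 of 21 scans and the PBS channel in 19. The same direction was seen in both dye orientations, with 4 tumor and 8 PBS scans of 9 when tumor RNA was in Cy5, and 5 tumor and 11 PBS scans of 12 when it was in Cy3. By replicate, the tumor count was lower in 3 of 4 and equal in the remaining one. For Cd151 a gap this low or lower was found in 0.63% of 8726 genes.

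At 18 h, where the measured ratios of Cd151 were near 0, the counts were 16 tumor and 22 PBS scans of 24. Over all genes 69.6% of tumor and 68.4% of PBS scans were above 0 at that time, and 1.86% of genes had a gap this low or lower. Rgs5 had an equal gap at 18 h, with 17 and 23 of 24. For Cd151 the gap came from one orientation, with 5 tumor and 12 PBS scans of 12 when tumor RNA was in Cy5. The counts were 11 and 10 of 12 otherwise. Over all genes and times, Cy5 scans were also above 0 less often than Cy3 scans, at 52.4% and 79.7%. At 72 h all genes were uneven, with 57.6% of tumor scans and 85.2% of PBS scans above 0, and Cd151 had 7 and 10 of 12. Scans of one slide are not replicates, so these counts carry no test, and they were examined after the ratios had been seen.

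Rgs5, the pericyte regulator, had its extreme values at 192 h in the polyA replicates. At 18 h replicates 1, 2 and 5 read -0.73, 0.15 and 0.34, and the estimate was -0.08 ± 0.15 (SE, n = 3, limma adjusted p = 0.96). Its sign turned to 0.16 when both Rgs5 spots were averaged, and to 0.0094 with the dimmer spot alone. At 192 h the replicates read -0.58, 0.32, -0.28 and -0.06, 3 of 4 below 0, for an estimate of -0.15 ± 0.13 (SE, n = 4, limma adjusted p = 0.999). At both times the polyA replicate with tumor RNA in Cy5 was the lowest.

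No replicate measured Rgs5 in both orientations at 72 h. Single arrays read 0.92 in replicate 3 and 0.13 in replicate 4.

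Anpep, the pericyte aminopeptidase, read 0.12, -0.26, -0.39 and -0.02 in replicates 1, 2, 3 and 5 at 18 h. The estimate was -0.14 ± 0.12 (SE, n = 4, limma adjusted p = 0.913), with 3 of 4 replicates below 0. At 192 h it was measured only in the polyA replicates, at 0.22 and 0.32, too few for a test. Both lay above every 18 h replicate, as did the 192 h replicates of 6.12% of the 490 genes with the same numbers of replicates. No total RNA array measured it at that time. At 72 h single arrays read -0.50 and 1.18 in different replicates and opposite orientations.

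Genes with related roles were taken from 9 lists and read in the same fit, and none of their members was called at any time. Of 43 endothelial genes, 18 were on the array and 8 could be tested at 18 h. All 8 had estimates above 0, with a median of 0.12, beside 49.3% of all genes above 0 and a median of -0.0026. Sox7 read 0.59, 1.69, 0.05, -0.12 and 0.03 in replicates 1 to 5, with both polyA replicates above the others. Its estimate was 0.45 ± 0.21, which was 0.15 without replicate 2 and 0.25 without replicate 1. Next came Ramp2, a partner protein of the adrenomedullin receptor, at 0.30 ± 0.11 (3 of 4 replicates above 0, unadjusted p = 0.0149, limma adjusted p = 0.887). Ramp2 read -0.99 in polyA replicate 1 and 1.76 in polyA replicate 2, and its total RNA replicates read 0.19 and 0.26. The dye term takes up the gap between its polyA replicates, which its standard error and p then leave out. The lowest was Klf2, a flow-responsive transcription factor, at 0.01 ± 0.13. Its replicates 1, 3 and 5 read -0.07, -0.07 and 0.04, with a plain mean below 0. The Klf2 estimate was thus above 0 only with the dye term.

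The count of 8 of 8 depended on the dye term, through Klf2, and on which replicates were used. Leaving out 1 replicate of 18 h, with 2 replicates then enough for a test, gave between 7 of 11 (without replicate 1) and 9 of 11 (without replicate 3) above 0, and medians from 0.06 to 0.14. The other counts were 9 of 12 without replicate 2, 7 of 10 without replicate 4 and 6 of 8 without replicate 5. With total RNA alone 2 of 3 were above 0. The count also depended on which genes were listed as endothelial. Pdgfb, a growth factor listed with the pericyte and smooth muscle genes, was at -0.13 ± 0.12 at 18 h. At 192 h 2 of 4 endothelial genes were above 0 and at 72 h 1 of 2, beside 41.9% and 52.7% of all genes. Sox7 read 0.16 and -0.96 in the replicates at 72 h.

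Tight and adherens junction genes had 13 of 17 estimates above 0 at 18 h, with a median of 0.08. Ctnnb1, which encodes beta-catenin, read 0.19, 0.49, 1.09 and 0.03 in replicates 1, 3, 4 and 5, for an estimate of 0.46 ± 0.16 (SE, n = 4, unadjusted p = 0.0151, limma adjusted p = 0.887), and 0.22 without replicate 4. The lowest was Prkci, a polarity kinase of junctions, at -0.64 ± 0.34. At 192 h 2 of 6 were above 0, beside 41.9% of all genes, and Ctnnb1 was at 0.0030 ± 0.15. Cldn10, a claudin, had the smallest p there, at -0.13 ± 0.10.

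Among genes related to Robo4, 1 of 4 Slit and Robo guidance genes was above 0 at 18 h. Unc5b, a netrin receptor of endothelium that also binds Robo4, was at -0.22 ± 0.13, below 0 in all 4 replicates measured. It was at -0.32 ± 0.16 at 72 h, below 0 in both replicates. Every measured replicate was below 0 for 7.52% of all genes at 18 h and 26% at 72 h. At 192 h Unc5b was measured only in replicate 2, at 0.61. Among genes related to Eng, 4 of 9 TGF-beta and BMP genes were above 0 at 18 h, and Id2, a target of BMP signals, was at 0.14 ± 0.10. At 192 h Bmp10, a circulating ligand that binds endoglin, was at -0.28 ± 0.13 (SE, n = 4, unadjusted p = 0.058, limma adjusted p = 0.999).

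Tetraspanins and laminin-binding integrins, related to Cd151, had 4 of 15 estimates above 0 at 18 h and 3 of 8 at 192 h, with medians of -0.06 and -0.03. Over all genes the shares above 0 were 49.3% and 41.9%. Tspan2, an oligodendrocyte tetraspanin, was the highest at 18 h at 0.25 ± 0.12, and Cd53, a leukocyte tetraspanin, the lowest at -0.37 ± 0.17. At 192 h the lowest was Cd37, a leukocyte tetraspanin, at -0.21, so none of the 8 relatives tested lay as low as Cd151 did. Pericyte and smooth muscle genes had 2 of 4 above 0 at 18 h, RGS genes 4 of 6, leukocyte adhesion genes 1 of 2 and surface peptidases 2 of 3. Rgs1, a regulator found in leukocytes, was at -0.47 ± 0.16 at 18 h, below 0 in all 3 replicates (unadjusted p = 0.0221, limma adjusted p = 0.887).

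**Figure D5:**
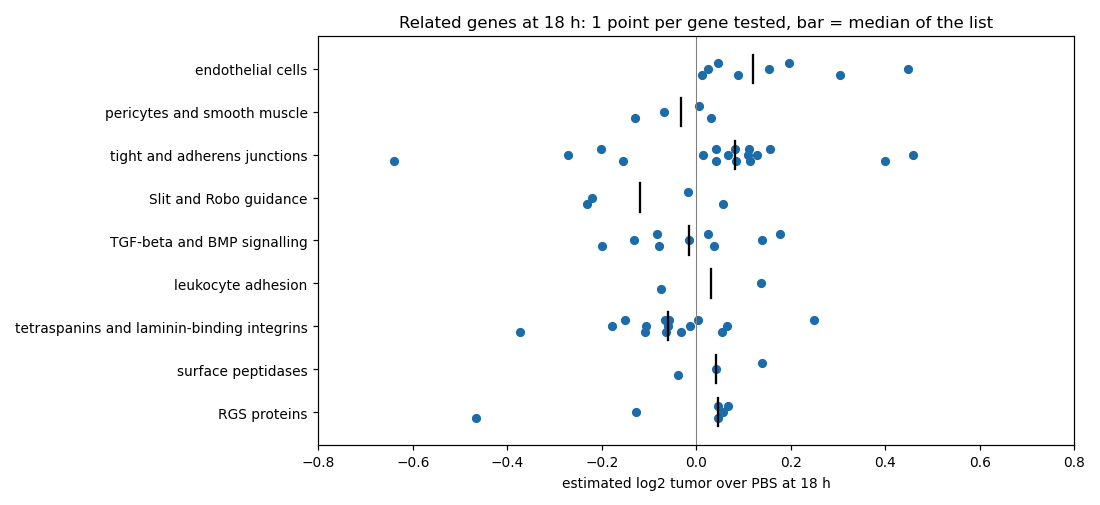
Estimated log2 tumor over PBS at 18 h (horizontal axis) of each gene tested in 9 lists related to the 8 genes, 1 point per gene, with bars at list medians. The 8 endothelial genes all lie above 0 with a median of 0.12, and tetraspanins have a median of -0.06; no gene shown passed the adjusted threshold.

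Markers of other cells were read beside these lists at 18 h, when Robo4 and the endothelial genes were above 0. Of the markers tested, 3 of 6 astrocyte, 4 of 6 microglia and macrophage, 2 of 4 oligodendrocyte, 4 of 9 neuron and 1 of 4 choroid plexus and ependyma genes were above 0. Blood cell markers were above 0 in 2 of 2, at a median of 0.23, and pituitary markers in 2 of 2, at 0.22. None was called, and their part in the values of Robo4 and the endothelial genes was not tested.

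The genes whose ratios were most like those of a member were found by the root mean square difference over the replicates measured in both, with at least 8 required. For Robo4 these were 2610002M06Rik at 0.15 and Fh1 at 0.16, among 1925 genes with a median of 0.50. For Eng they were Scamp5 at 0.08 and Emc4 at 0.09, among 1168 genes with a median of 0.37. For Cd151 they were Adipor1 at 0.14 and P2rx1 at 0.20, among 525 genes with a median of 0.50. The other members were measured in fewer than 8 replicates.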

How the data were processed

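The files were 3 scans per array with spot intensity in 2 channels, deposited with the local background already subtracted per the file headers. No source used here names the quantification software or the scanner settings. Of 1149120 intensities, 34.3% were 0 and 945 below 0; a scan measured a spot only where both channels were above 0. The authors' deposited table of log ratios, read as natural log with base, centring and normalization unstated, was used in one alternative setting.

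The log2 ratio of the deposited intensities was normalized within each scan by loess on brightness (limma 3.58.1 in R 4.3.3, span 0.3, 4 iterations). Scans were averaged, ratios turned to tumor over PBS, and the brightest spot taken where a gene had several. Arrays of a replicate were averaged, and a total RNA replicate needed both orientations, so dye swaps counted once. Gene names came from the platform annotation, in which 9066 to 9074 spots per layout had 1 symbol, 12 several and 994 to 1002 none. Limma fitted 3 time terms and a dye term over all genes; differences between times came from the same fit, which was checked on simulated data. A further 6 arrays were not analysed here: 5 of 72 h, which hold its replicates 1 and 2, and 1 of 192 h, a second array of replicate 1.

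Named genes are the 8 members, the smallest p of each list and time, the 2 closest genes per member, and the extremes of lists, Cdh5, Pdgfrb and Sox7, which were added after values were seen. The members and lists were chosen with earlier results of these data known. Alternatives covered normalization, background, scans, dim spots, probes, dye term, RNA type, replicate block and leaving out each replicate. Same-numbered replicates did not deviate together throughout. Precision is limited by how few arrays there are.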

Additional observations from a re-analysis of the deposited data

How the results depend on the processing

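The arrays were few, and weak signals limited them further: spots at 0 in a channel gave no ratio, so the genes tested differ between settings. Of 19 results on the 8 genes, 12 kept their direction under every one of the 22 alternative settings that gave a value, 7 changed it under at least 1, and 26 of 305 values had the other direction. Leaving out each of the 11 replicates in turn, 13 kept their direction and 6 did not. These counts include settings that could not move a given value, such as averaging all spots of a gene with 1 spot. Leaving out a replicate of another time also left most results at a single time unmoved. The causes of the changes of direction were not tested. Some settings were added after the data were seen (the scanner's own spot flag, the dimmer Rgs5 spot, and at least 2 replicates at each time), as were the counts of endothelial genes without each 18 h replicate or without polyA RNA, and the values of Sox7, Ramp2 and Ctnnb1 without each 18 h replicate.

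Robo4 stayed above 0 at 18 h in 19 of 19 alternatives, from 0.13 to 0.50, with limma adjusted p-values from 0.653 to 0.993. Several of these could not move its estimate of 0.4566. They were no dye term, single orientations kept, all spots averaged, and at least 2 replicates at each time. Cd151 at 192 h stayed below 0, from -0.86 to -0.22 across settings and from -0.58 to -0.39 without each replicate. Cd151 at 18 h was above 0 with loess per print block (0.1642), scale normalization (0.0094), normexp background (0.0026), the median of scans (0.0291), scan 1 alone (0.0379) and the authors' deposited values (0.4345). Rgs5 at 18 h was above 0 with loess per print block (0.0161), median centring (0.0239), RNA type as a covariate (0.0756), scan 1 (0.0431), single orientations kept (0.0635), the mean of both spots (0.157), the authors' deposited values (0.0039), arrays as a random block (0.0814) and the dimmer spot (0.0094). With the authors' deposited values it was also above 0 at 192 h (0.0558). Eng at 18 h was below 0 with median centring (-0.0669), scale normalization (-0.0104) and scan 3 (-0.0157). The average of Eng was above 0 with loess per print block (0.0192), RNA type as a covariate (0.0166), single orientations kept (0.0032) and arrays as a random block (0.0082). Jam2 at 72 h was below 0 with scale normalization (-0.0941) and normexp (-0.0233), and Anpep at 18 h was above 0 with scan 3 (0.0137).

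Without each replicate in turn, Rgs5 at 18 h ranged from -0.288 to 0.0947, Eng at 18 h from -0.1254 to 0.2006, Cd151 at 18 h from -0.1294 to 0.0992, and Jam2 at 72 h from -0.2334 to 0.5178. Eng at 192 h ranged from -0.3673 to 0.1543 and its average from -0.0995 to 0.0744. The median over the members at 18 h ranged from -0.1033 where both net signals had to exceed the local background (3 members) to 0.2019 with total RNA alone (3 members).

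The count of genes called at 192 h was 1 with total RNA alone and 0 to 3 without each replicate, with 3 without replicate 2 of 18 h and 2 without replicate 4 of 192 h. Jam2 was among those 3, at an adjusted p of 0.01. At 72 h, and for 72 h minus 18 h, it was 0 to 1, with 1 without replicate 4 of 72 h. Genes called for dye numbered 209, against 1141 with median centring and 121, 101 and 127 with scan 1, 2 or 3. The count was 58 with both net signals above the local background and 26 where every replicate was measured. It was 133 with the authors' deposited values and 105 with arrays as a random block, where the Jam2 term was -2.2476.

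Same-numbered replicates of 18 h and 192 h correlated at 0.549 and 0.387 for the polyA replicates, which also had the same dye orientation at both times, and at -0.0587 and -0.0463 for total RNA. With 72 h, the total RNA pairs correlated at -0.0155, -0.0479, 0.117 and -0.0647. Not every pair deviated together, and the numbers were not taken as pairing the samples. With the replicate block, 192 h minus 18 h was -0.6383 for Robo4 and -0.488 for Cd151, 192 h minus 72 h was 0.3039 for Jam2, and 0 genes were called. With the number as a random block, 0 genes were called at any time.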
